A study of Homo sapiens with 6 samples.

Results

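Interferon-stimulated genes and the sensors of double-stranded RNA were followed through 2 siRNA knockdowns in TOV21G, a human ovarian clear cell carcinoma cell line. The genes were taken by symbol from a list of 39 names, of which 38 were found among the 16910 gene rows of the deposited table. The name RIGI had no row of its own, and the same gene is listed under its older symbol DDX58. They comprise 9 sensors, 4 transcription factors and 25 effectors. The 3 groups were siGYS1, sip53 and NC, each with 2 poly(A) RNA-seq libraries. By its name siGYS1 is directed at GYS1, the muscle-type glycogen synthase, and sip53 at the tumour suppressor p53. The labels give the same cell line for all 3 groups and genotype WT for NC, and the stated aim is to learn what GYS1 does in TOV21G. The sources used here do not give the content of NC, the siRNA sequences, the time after transfection or whether replicates came from separate cultures; p-values therefore cover the spread between these libraries alone.

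Double-stranded RNA in the cytoplasm is bound by the helicases RIG-I (gene DDX58) and MDA5 (gene IFIH1), and in endosomes by TLR3. They signal through the adapters MAVS and TRIF to the kinases and transcription factors that switch on interferon genes. Secreted interferon then acts through its receptors, the kinases JAK1 and TYK2, and a complex that contains STAT2 and IRF9 and binds a promoter motif called the interferon-stimulated response element. The genes switched on in this way encode antiviral effectors and more of the sensors and transcription factors themselves. The oligoadenylate synthetases and the kinase PKR (gene EIF2AK2) also bind double-stranded RNA, and they shut down viral RNA and protein synthesis.

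Total read counts were between 17425000 and 18097337 per library. GYS1 was at 1.69 and 1.67 FPKM (the authors' level per transcript length and library depth) with siGYS1, against 28.6 and 27.3 with NC, which was 6.29% of NC in the fit. Gene lengths tracked the deviations of 2 libraries from the rest, siGYS1 replicate 1 (Spearman rho 0.54 across 11187 genes, which are not independent replicates) and NC replicate 2 (rho -0.39). The other 4 libraries had rho between -0.08 and 0.04. Summed FPKM of the 7 leukocyte markers in the table (of 10 listed) were 6.26 to 6.71 with siGYS1, 7.54 to 8.4 with sip53 and 6.27 to 6.32 with NC, mostly from CD68, while LYZ and NKG7 were at 0.22 or less. Fibroblast markers summed to 145 to 155 FPKM with siGYS1, 92.3 to 92.8 with sip53 and 176 to 177 with NC, mostly from COL1A2, with COL3A1 and FAP at 0.02 or less. Endothelial markers summed to 0.6 to 0.64, 1.32 to 1.93 and 0.71 to 0.88 FPKM in the same order of groups. Clear cell carcinoma markers summed to 492 to 554 FPKM with siGYS1, 533 to 542 with sip53 and 662 to 678 with NC. Among them, PAX8 was well expressed in every library, whereas NAPSA was at 0.32 to 0.47 FPKM. With sip53, log2 fold changes against NC ran from -0.88 to 4.23 over the 3 fibroblast markers that could be tested. They ran from -2.39 to 0.81 over 3 leukocyte markers and from -1.54 to 0.48 over 7 clear cell carcinoma markers. The sums therefore do not show how each marker moved. The part of these marker sets in the results was not tested. In bulk RNA, fewer cells expressing a gene and less RNA per cell cannot be told apart.

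Most of the interferon-stimulated genes rose with sip53, and a smaller set of them rose with siGYS1. Of the 38 genes, 36 passed the filter on low counts and were tested; MX2 and IFI44L did not. With siGYS1, 8 rose and 1 fell against NC, which is 25% of those tested, beside 19.7% of all 13235 tested genes (10.4% higher and 9.24% lower). With sip53, 24 rose and 3 fell, which is 75%, beside 49.9% of all genes (23.4% higher and 26.5% lower). The threshold for a change was an adjusted p (Benjamini-Hochberg, over all genes) under 0.05 in edgeR's quasi-likelihood test. The median log2 fold change of the tested members was 0.13 with siGYS1 and 0.71 with sip53, beside -0.01 and -0.03 over all genes. Both comparisons use the same NC libraries. The share of members changed with siGYS1 is close to that of all genes. OASL, RSAD2 and IFI44 reached the filter's minimum of 10 reads in a knockdown but not in NC; of the other 33 tested members, 6 rose and 1 fell with siGYS1, and 21 rose and 3 fell with sip53. Fits without NC replicate 1, NC replicate 2, siGYS1 replicate 2, sip53 replicate 1 and sip53 replicate 2 gave 1696, 926, 4260, 1550 and 1571 changed genes with siGYS1 in place of 2602, and without sip53 replicate 1 the sip53 comparison gave 4271 in place of 6605.

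**Figure D1:**
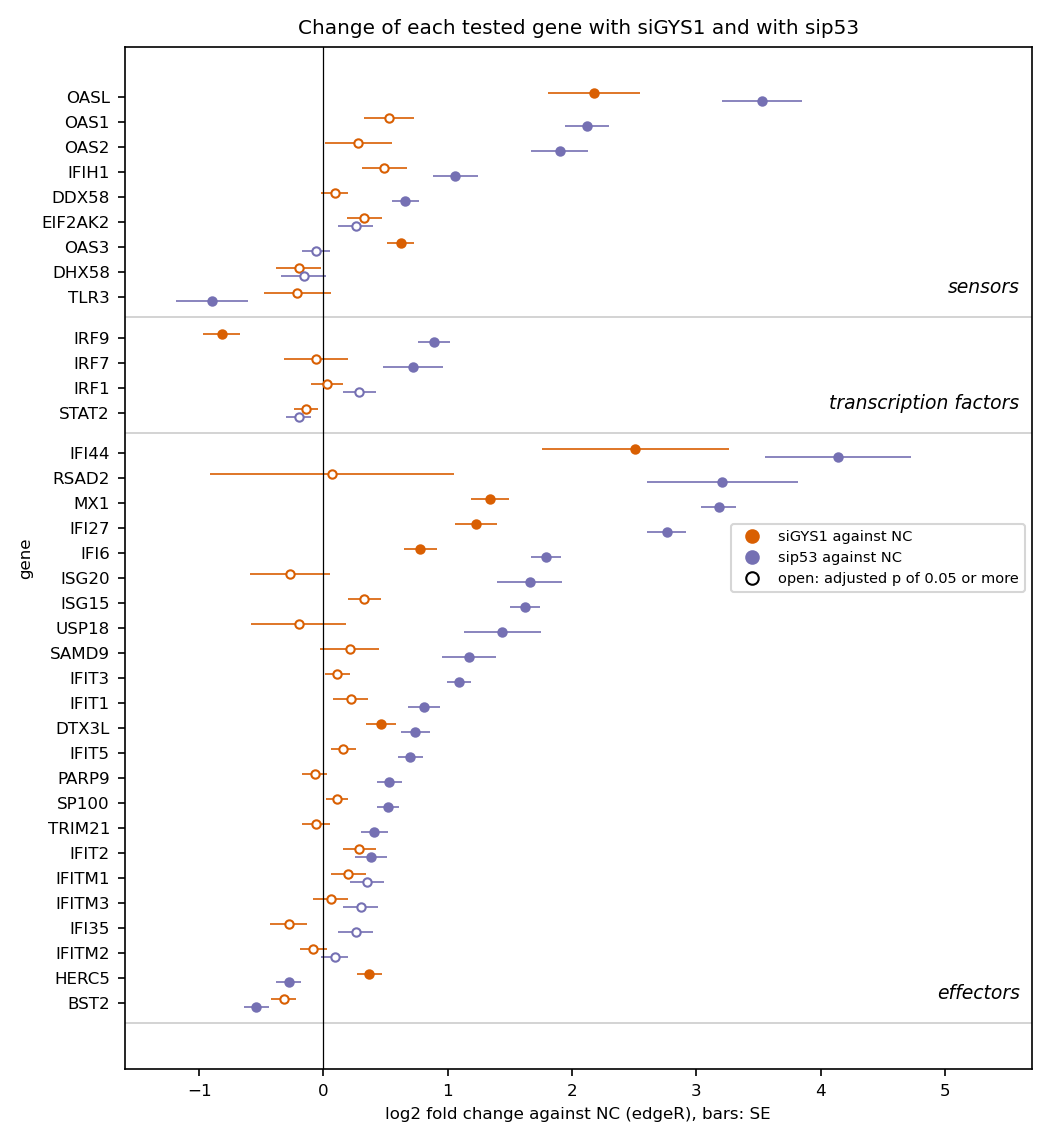
Log2 fold change of each of the 36 tested genes with siGYS1 and with sip53 against NC, from the edgeR fit, with bars of 1 SE; genes are grouped into sensors, transcription factors and effectors. With sip53, 24 genes rose, up to 4.14 for IFI44, while 23.4% of all tested genes were higher. IFI44, OASL and RSAD2 reached the filter's minimum of 10 reads in a knockdown but not in NC. IRF9 is at -0.82 with siGYS1 and 0.89 with sip53.

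**Figure D2:**
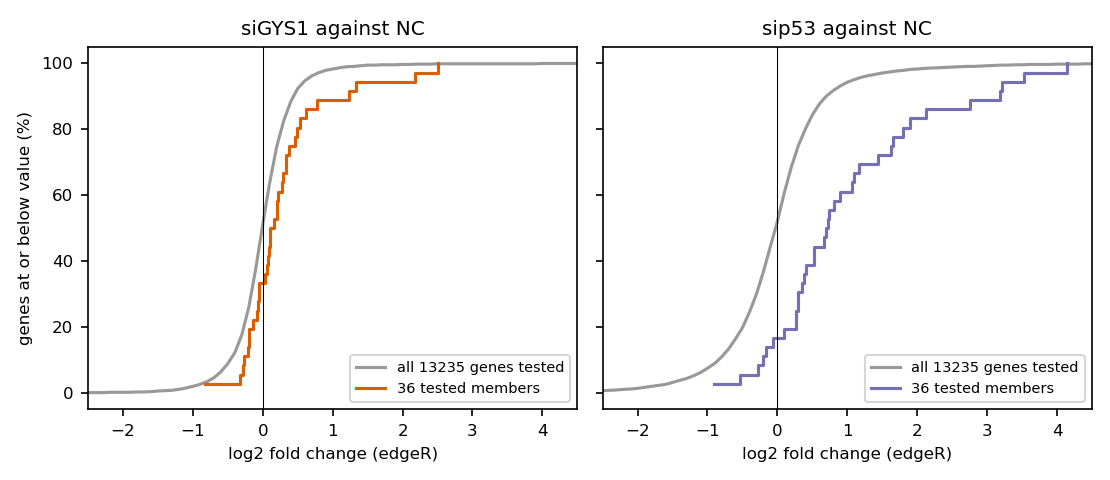
Cumulative share (%) of genes at or below each log2 fold change against NC, for the 36 tested members and for all 13235 tested genes, in a panel for each knockdown. The members' curve lies to the right of the curve of all genes in the sip53 panel (medians 0.71 and -0.03), and close to it in the siGYS1 panel (medians 0.13 and -0.01).

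Most of these genes hold the core letters of the interferon-stimulated response element near the start. They were listed as interferon-stimulated genes and sensors, so this share describes the list and is not a result of these libraries. RefSeq promoters (GRCh38.p14), running from 250 bases before to 50 bases after the gene start, were available for 30 of the 38 genes. The core letters of the interferon-stimulated response element, GAAANNGAAA (TTTCNNTTTC on the other strand), were present in 23 of the 30 genes, or 76.7%, against 4.38% of all 27305 RefSeq genes. The letters TTCNNNGAA, the core of the gamma-activated site, were in 9 of the 30, or 30%, against 9.38% of all genes; both strands were searched. Among genes that rose with sip53, 15 of 19 held GAAANNGAAA, as did 3 of the 3 that fell and 4 of 7 that did not pass the test. The promoters of DDX58, OAS1, STAT2, IRF1, IRF9, IFI35 and SP100 did not hold these letters in this window. The 250 bases before the start are given for IFI44, MX1, IFI27 and IFI6, genes that rose in both knockdowns, and for BST2 and HERC5, chosen after their values were seen because they fell with sip53. Promoters without a match before the start were not printed, so these sequences cannot show how often the motif occurs. They read 5′ to 3′ along the gene's strand, with every match to GAAANNGAAA or its reverse complement in capitals.
IFI44: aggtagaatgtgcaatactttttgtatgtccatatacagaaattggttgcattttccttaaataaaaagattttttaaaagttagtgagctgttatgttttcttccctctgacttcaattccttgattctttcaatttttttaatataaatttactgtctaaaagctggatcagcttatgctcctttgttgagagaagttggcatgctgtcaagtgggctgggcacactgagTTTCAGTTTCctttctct
MX1: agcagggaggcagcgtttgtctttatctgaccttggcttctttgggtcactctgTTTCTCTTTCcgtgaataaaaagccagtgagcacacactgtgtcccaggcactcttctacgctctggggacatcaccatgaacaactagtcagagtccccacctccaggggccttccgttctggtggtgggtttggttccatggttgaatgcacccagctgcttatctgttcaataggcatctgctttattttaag
IFI27: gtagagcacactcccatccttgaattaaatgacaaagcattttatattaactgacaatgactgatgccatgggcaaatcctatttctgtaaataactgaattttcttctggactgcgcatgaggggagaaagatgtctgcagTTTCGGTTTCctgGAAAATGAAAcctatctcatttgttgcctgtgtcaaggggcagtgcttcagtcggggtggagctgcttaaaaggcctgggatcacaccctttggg
IFI6: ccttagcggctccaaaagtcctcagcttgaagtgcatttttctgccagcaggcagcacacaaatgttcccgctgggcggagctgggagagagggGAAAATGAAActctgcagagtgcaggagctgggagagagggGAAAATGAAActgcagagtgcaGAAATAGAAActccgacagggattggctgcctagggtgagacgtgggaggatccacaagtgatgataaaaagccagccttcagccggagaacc
BST2: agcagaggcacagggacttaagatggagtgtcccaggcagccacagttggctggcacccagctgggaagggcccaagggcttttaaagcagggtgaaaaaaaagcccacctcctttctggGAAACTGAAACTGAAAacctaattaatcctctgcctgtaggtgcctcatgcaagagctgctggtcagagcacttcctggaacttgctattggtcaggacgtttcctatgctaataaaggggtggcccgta
HERC5: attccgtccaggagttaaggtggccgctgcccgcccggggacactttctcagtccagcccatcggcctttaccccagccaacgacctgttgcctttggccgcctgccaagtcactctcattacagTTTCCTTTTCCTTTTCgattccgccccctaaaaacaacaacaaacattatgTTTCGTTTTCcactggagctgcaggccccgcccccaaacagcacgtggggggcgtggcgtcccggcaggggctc
These lie at chr1:78649539-78649788 (plus strand, IFI44), chr21:41431800-41432049 (plus, MX1, for an alternative start of the gene), chr14:94110486-94110735 (plus, IFI27), chr1:27672193-27672442 (minus, IFI6), chr19:17405631-17405880 (minus, BST2) and chr4:88456869-88457118 (plus, HERC5). IFI44 holds 1 match, starting 18 bases before the gene start, and MX1 holds 1, at 196 bases. IFI27 holds 2 and IFI6 holds 3. BST2 holds 2 overlapping matches and HERC5 holds 3.

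Among the 9 sensors, 2 rose with siGYS1 (OASL and OAS3), and with sip53 5 rose (OASL, OAS1, OAS2, IFIH1 and DDX58) and 1 fell (TLR3). That is 22.2% and 66.7% changed, beside 19.7% and 49.9% of all tested genes. The median log2 fold changes of the sensors were 0.33 and 0.66. Without siGYS1 replicate 2, 4 sensors passed with siGYS1. OASL (ENSG00000135114), an oligoadenylate synthetase-like protein without synthetase activity that activates RIG-I, was at 0.87 and 1.18 FPKM with siGYS1, 2.95 and 2.43 with sip53, and 0.35 and 0.23 with NC. Both knockdowns lay above NC in every library, on 26 and 35 reads with siGYS1, 87 and 67 with sip53, and 8 and 6 with NC. The rise was 4.53-fold with siGYS1 (log2 2.18, SE 0.37, adjusted p = 0.00421) and 11.5-fold with sip53 (log2 3.53, SE 0.32, adjusted p = 2.33e-05).

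OAS1 and OAS2 make the oligoadenylates that activate RNase L. OAS1 was at 2.54 and 3.26 FPKM with siGYS1, 8.04 and 8.73 with sip53, and 1.87 and 2.00 with NC. It rose 4.35-fold with sip53 (log2 2.12, SE 0.18, adjusted p = 1.28e-05). With siGYS1 both libraries were above NC, but the change did not pass in the main fit (log2 0.53, SE 0.20, adjusted p = 0.0891). In edgeR it passed with a replicate block (0.53, adjusted p = 0.0398) and with length-corrected offsets (0.59, adjusted p = 0.0273). Without siGYS1 replicate 1 the change was 0.74. OAS2 was at 0.66 and 0.56 FPKM with siGYS1, 1.52 and 1.92 with sip53, and 0.59 and 0.56 with NC. It rose 3.72-fold with sip53 (log2 1.90, SE 0.23, adjusted p = 0.000122), while its siGYS1 and NC libraries overlapped.

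OAS3, the synthetase that responds to long double-stranded RNA, had another pattern. It was at 12.8 and 11.7 FPKM with siGYS1, 10.02 and 10.03 with sip53, and 8.34 and 7.51 with NC. It rose 1.54-fold with siGYS1 (log2 0.62, SE 0.11, adjusted p = 0.00488) and did not pass with sip53 (log2 -0.06, SE 0.11, adjusted p = 0.698). On the FPKM scale sip53 lay above NC, and limma on log2(FPKM + 1) gave a change of 0.31 (adjusted p = 0.0423). The read counts were 1162 and 1007 with siGYS1, 647 and 693 with sip53, and 785 and 703 with NC. The transcript length implied by reads and FPKM was 5.22 and 4.78 kb with siGYS1, 3.60 and 3.83 kb with sip53 and 5.27 and 5.17 kb with NC, so the direction with sip53 depends on whether length is divided out.

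The helicases IFIH1 and DDX58 rose with sip53. IFIH1 was at 2.11 and 1.74 FPKM with siGYS1, 3.01 and 2.58 with sip53, and 1.35 and 1.52 with NC. The groups do not overlap, and the rise with sip53 passed (2.08-fold, log2 1.06, SE 0.18, adjusted p = 0.000873). That with siGYS1 did not pass in the main fit (log2 0.49, SE 0.18, adjusted p = 0.0891). In edgeR with a replicate block it passed (0.49, adjusted p = 0.048), and without siGYS1 replicate 2 the change was 0.64. DDX58 was at 9.13 and 8.45 FPKM with siGYS1, 13.5 and 12.0 with sip53, and 9.44 and 7.70 with NC. It rose with sip53 (log2 0.66, SE 0.11, adjusted p = 0.000916), and its siGYS1 and NC libraries overlapped. DHX58, which encodes LGP2, a helicase that tunes MDA5 and RIG-I signalling, did not pass with either siRNA, at log2 changes of -0.20 with siGYS1 and -0.16 with sip53.

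For TLR3 and EIF2AK2 the call depended on the libraries fitted. EIF2AK2 was at 17.4 and 10.5 FPKM with siGYS1, 14.9 and 13.5 with sip53, and 12.3 and 9.66 with NC. Its siGYS1 libraries lay apart, above and below the sip53 pair, and overlapped NC, while both sip53 libraries were above NC. Neither comparison passed (log2 0.33, adjusted p = 0.13 with siGYS1, and log2 0.26, adjusted p = 0.151 with sip53). Without siGYS1 replicate 2 the siGYS1 change was 0.57 (adjusted p = 0.000399), and with sip53 the gene passed in 5 of 16 alternatives (adjusted p = 0.00807 to 0.0198), among them those without siGYS1 replicate 1 or siGYS1 replicate 2. TLR3 was at 0.66 and 0.38 FPKM with siGYS1, 0.33 and 0.36 with sip53, and 0.36 and 0.80 with NC. It fell with sip53 in the fit (log2 -0.90, SE 0.29, adjusted p = 0.0276), although the FPKM of sip53 replicate 2 and NC replicate 1 are both 0.36. This call was lost without NC replicate 2 (log2 -0.72, adjusted p = 0.174), without sip53 replicate 1 (-0.78, adjusted p = 0.152), without sip53 replicate 2 (-1.03, adjusted p = 0.0765) and in DESeq2 (-0.88, adjusted p = 0.19).

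Of the 4 transcription factors, IRF9 fell and none rose with siGYS1, and IRF9 and IRF7 rose with sip53. Their median log2 fold changes were -0.10 and 0.50. The shares changed, 25% and 50%, are close to the 19.7% and 49.9% of all tested genes. IRF9 (ENSG00000213928) is the DNA-binding subunit of the complex with STAT2. It was at 5.21 and 3.44 FPKM with siGYS1, 16.4 and 13.5 with sip53, and 8.20 and 7.06 with NC. The 3 groups do not overlap, with siGYS1 lowest and sip53 highest. IRF9 fell to 0.565 of NC with siGYS1 (log2 -0.82, SE 0.15, adjusted p = 0.00473) and rose 1.85-fold with sip53 (log2 0.89, SE 0.13, adjusted p = 0.000357). Both calls held without each library in turn. In the human GENCODE annotation 1838 of its exon bases are shared on the same strand with AL136295.5, which is not a row of the table, so some reads may come from that gene.

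STAT2 and IRF1 did not pass against NC in the main fit. STAT2, the partner that carries the activation domain, was at 15.5 and 13.8 FPKM with siGYS1, 13.0 and 13.1 with sip53, and 17.1 and 14.9 with NC. The sip53 libraries were below both NC libraries, but neither comparison passed (log2 -0.14, adjusted p = 0.332 with siGYS1, and -0.20, adjusted p = 0.117 with sip53). The sip53 change passed in 3 of 16 alternatives. The siGYS1 change passed in 1, edgeR with length-corrected offsets (-0.24, adjusted p = 0.0178). IRF1, an interferon-gamma-inducible factor, was at 7.06 and 9.54 FPKM with siGYS1, 8.85 and 8.86 with sip53, and 9.33 and 7.98 with NC, and the groups overlapped (log2 0.03, adjusted p = 0.885, and 0.29, adjusted p = 0.0888). With sip53 it passed in 5 of 16 alternatives, among them the fits without siGYS1 replicate 1 (0.29, adjusted p = 0.0388) and without siGYS1 replicate 2 (0.31, adjusted p = 0.0279). IRF1 shares 1716 exon bases on the opposite strand with C5orf56, and the sources used here do not say whether counting used strand.

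IRF7, which amplifies interferon alpha genes, was at 1.66 and 1.87 FPKM with siGYS1, 2.87 and 3.05 with sip53, and 2.64 and 1.47 with NC. The sip53 libraries were the highest, and NC replicate 2 the lowest. It rose with sip53 (log2 0.72, SE 0.24, adjusted p = 0.0326), and the call was lost without NC replicate 2 (0.42, adjusted p = 0.227), without sip53 replicate 1 (0.68, adjusted p = 0.139) and without sip53 replicate 2 (0.75, adjusted p = 0.101). So IRF9 was the transcription factor on this list whose changes held in both comparisons without each library.

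**Figure D3:**
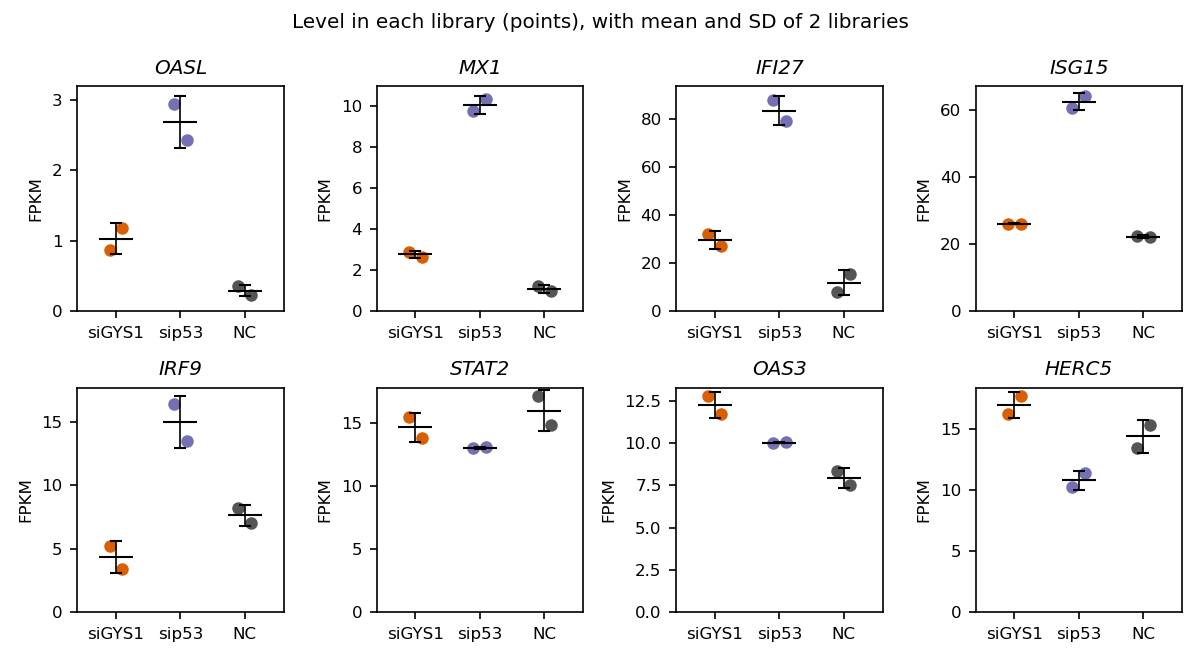
FPKM of 8 genes in each library, with siGYS1, sip53 and NC from left to right; points are libraries and bars show the mean and SD of 2 libraries, on axes from 0. OASL, MX1 and IFI27 lie in the order sip53, siGYS1, NC from high to low, IRF9 in the order sip53, NC, siGYS1, and HERC5 in the order siGYS1, NC, sip53.

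Of the 25 effectors, 23 were tested; 6 rose and none fell with siGYS1, and 17 rose and 2 fell with sip53. That is 26.1% and 82.6% changed, beside 19.7% and 49.9% of all tested genes. The median log2 fold changes of the effectors were 0.16 and 0.74. The 6 that rose with siGYS1 were MX1, IFI6, IFI27, IFI44, HERC5 and DTX3L. Fits without NC replicate 2, sip53 replicate 1 or sip53 replicate 2 each gave 3 rises with siGYS1.

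MX1 (ENSG00000157601), a dynamin-like GTPase that blocks viral replication, was at 2.90 and 2.66 FPKM with siGYS1, 9.76 and 10.4 with sip53, and 1.23 and 0.95 with NC. The replicates lay close together and the 3 groups were apart. It rose 2.53-fold with siGYS1 (log2 1.34, SE 0.15, adjusted p = 0.000587) and 9.03-fold with sip53 (log2 3.18, SE 0.14, adjusted p = 3.5e-07). IFI27, a small mitochondrial and nuclear membrane protein, was at 32.1 and 27.0 FPKM with siGYS1, 87.8 and 79.2 with sip53, and 8.01 and 15.4 with NC. The NC libraries differed from each other but stayed below every knockdown library. Its rises were 2.34-fold (log2 1.23, SE 0.17, adjusted p = 0.0018) and 6.75-fold (log2 2.76, SE 0.16, adjusted p = 1.43e-06) with siGYS1 and sip53.

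IFI6, a related protein that counters apoptosis and flavivirus replication, was at 27.3 and 26.7 FPKM with siGYS1, 53.0 and 53.2 with sip53, and 14.9 and 18.4 with NC. The groups did not overlap, and the rises were 1.72-fold with siGYS1 (log2 0.78, SE 0.13, adjusted p = 0.00337) and 3.46-fold with sip53 (log2 1.79, SE 0.12, adjusted p = 4.03e-06). IFI44 rested on few reads, 6 and 6 with siGYS1, 20 and 17 with sip53, and 1 and 1 with NC. The ratio to NC of the summed reads, scaled by library size, was 6.33 with siGYS1 (95% interval 1.41 to 58.2) and 19.8 with sip53 (5.1 to 169), where intervals cover counting error only. The fitted log2 changes were 2.51 (adjusted p = 0.0432) and 4.14 (adjusted p = 0.000343). IFI44 was tested through sip53 alone, the group where it is highest. The call with siGYS1 was lost on leaving out any library: adjusted p was 0.149 without NC replicate 1, 0.201 without NC replicate 2, 0.137 without siGYS1 replicate 1, 0.083 without siGYS1 replicate 2, 0.0853 without sip53 replicate 1 and 0.0828 without sip53 replicate 2.

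ISG15 was counted with the enzymes that act with it. ISG15 is a ubiquitin-like modifier, HERC5 the ligase that attaches it to proteins, and USP18 the protease that removes it and also restrains the interferon receptor. ISG15 was at 26.1 and 26.0 FPKM with siGYS1, 60.8 and 64.4 with sip53, and 22.5 and 22.0 with NC. All groups lay apart, and in the main fit the rise passed with sip53 (3.07-fold, log2 1.62, SE 0.12, adjusted p = 5.68e-06) and not with siGYS1 (log2 0.33, SE 0.13, adjusted p = 0.0944). In edgeR with length-corrected offsets the siGYS1 rise passed (0.48, adjusted p = 0.0219). USP18 was at 0.32 and 0.53 FPKM with siGYS1, 1.38 and 1.22 with sip53, and 0.53 and 0.49 with NC. It rose 2.71-fold with sip53 (log2 1.44, SE 0.31, adjusted p = 0.00372), while siGYS1 and NC overlapped.

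HERC5 differed from ISG15 in its direction with sip53. It was at 16.2 and 17.7 FPKM with siGYS1, 10.2 and 11.4 with sip53, and 13.4 and 15.3 with NC. It was highest with siGYS1 and lowest with sip53, with no overlap. Its changes were small, a rise of 0.37 on the log2 scale with siGYS1 (SE 0.10, adjusted p = 0.0275) and a fall with sip53 (log2 -0.28, SE 0.10, adjusted p = 0.0413). With siGYS1 the call was lost on leaving out NC replicate 1 (0.32, adjusted p = 0.139) or NC replicate 2 (0.43, adjusted p = 0.0907). The same happened when sip53 replicate 1 (adjusted p = 0.055) or the other sip53 library (adjusted p = 0.0537) was left out. The sip53 call was lost on leaving out any of the NC and sip53 libraries. Its change was -0.33 without NC replicate 1 (adjusted p = 0.0706), -0.23 without NC replicate 2 (adjusted p = 0.209), -0.18 without sip53 replicate 1 (adjusted p = 0.311) and -0.38 without sip53 replicate 2 (adjusted p = 0.0537).

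IFIT1 binds viral RNA that lacks host cap methylation, and all 4 IFIT genes on the list rose with sip53. IFIT3 was at 7.58 and 7.14 FPKM with siGYS1, 14.2 and 14.1 with sip53, and 6.77 and 7.57 with NC. The sip53 libraries stood above all others (2.13-fold, log2 1.09, SE 0.10, adjusted p = 2.33e-05), and siGYS1 and NC overlapped. IFIT1 was at 3.85 and 4.96 FPKM with siGYS1, 6.82 and 6.03 with sip53, and 3.89 and 3.96 with NC, a rise of 0.81 on the log2 scale with sip53 (SE 0.13, adjusted p = 0.000771). Its siGYS1 and NC libraries overlapped too; without siGYS1 replicate 1 its siGYS1 change was 0.40 (adjusted p = 0.0487).

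IFIT2 and IFIT5 are less secure. IFIT2 was at 7.02 and 6.93 FPKM with siGYS1, 8.07 and 6.44 with sip53, and 6.32 and 5.38 with NC. It passed with sip53 (log2 0.38, SE 0.13, adjusted p = 0.039), its sip53 libraries lying just above NC. The change was 0.26 without NC replicate 2 (adjusted p = 0.228) and 0.20 without sip53 replicate 1 (adjusted p = 0.335), and did not pass. IFIT5 was at 14.2 and 10.99 FPKM with siGYS1, 17.6 and 16.5 with sip53, and 12.1 and 16.4 with NC, and it passed with sip53 on counts (log2 0.70, SE 0.10, adjusted p = 0.000307). Its lower sip53 library and its higher NC library were nearly level, and on limma's log2(FPKM + 1) scale the change was 0.26 (adjusted p = 0.214). In the main fit none of the 4 passed with siGYS1, where their log2 changes were between 0.11 and 0.29. IFIT2 passed with siGYS1 in edgeR with a replicate block (0.30, adjusted p = 0.0269).

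The IFITM proteins, which stop viruses at the membrane during entry, were the most abundant effectors per length. In the main fit none of the 3 passed against NC, but the calls of IFITM1 and IFITM3 depended on the setting in both comparisons. IFITM3 was at 235 and 281 FPKM with siGYS1, 303 and 294 with sip53, and 225 and 305 with NC. The NC libraries spanned the other groups. IFITM1 ranged from 115 to 163 FPKM and IFITM2 from 138 to 192 FPKM over the 6 libraries, and the log2 changes of these 3 genes were -0.08 to 0.20 with siGYS1 and 0.09 to 0.35 with sip53. With siGYS1, IFITM1 (0.36, adjusted p = 0.00274) and IFITM3 (0.22, adjusted p = 0.0314) passed in edgeR with length-corrected offsets. Without both NC replicate 2 and siGYS1 replicate 1, their siGYS1 changes were 0.55 and 0.42. With sip53, IFITM1 passed in 9 of 16 alternatives and IFITM3 in 7. Without NC replicate 2 their changes were 0.57 (adjusted p = 0.0114) and 0.53 (adjusted p = 0.0152), in place of 0.35 and 0.30. Both also passed without siGYS1 replicate 1 (adjusted p = 0.0128 and 0.0291) and without siGYS1 replicate 2 (adjusted p = 0.00698 and 0.0175). The 3 genes are paralogs, and IFITM1 and IFITM2 share 351 annotated exon bases on the same strand. The split of reads among the 3 is therefore uncertain.

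Other antiviral effectors rose with sip53 and, with all libraries fitted, did not pass with siGYS1. ISG20, an RNA exonuclease, was at 1.69 and 2.22 FPKM with siGYS1, 7.33 and 6.22 with sip53, and 1.96 and 2.80 with NC. The sip53 libraries stood well above the rest (3.16-fold, log2 1.66, SE 0.26, adjusted p = 0.000604). SAMD9, a restriction factor for poxviruses, was at 1.48 and 0.82 FPKM with siGYS1, 2.26 and 2.08 with sip53, and 1.00 and 1.07 with NC. It rose with sip53 (log2 1.17, SE 0.22, adjusted p = 0.00192), and its siGYS1 libraries lay on either side of NC. With siGYS1 its change was 0.21 (adjusted p = 0.573), but 0.59 (adjusted p = 0.0136) without siGYS1 replicate 2. RSAD2, or viperin, an enzyme that makes a chain-terminating nucleotide, had 2 and 1 reads with siGYS1, 14 and 14 with sip53, and 2 and 1 with NC. The ratio of summed reads, sip53 to NC, was 9.97 (95% interval 3.08 to 51.2), and the fitted change passed (adjusted p = 0.00191). RSAD2 reached the filter's minimum of 10 reads with sip53 alone, so it was tested through the group where it is high.

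PARP9, DTX3L, TRIM21 and SP100 act on ubiquitin, ADP-ribose and nuclear bodies. PARP9 and DTX3L form a ligase complex. DTX3L was at 8.56 and 6.83 FPKM with siGYS1, 9.16 and 9.05 with sip53, and 6.19 and 5.46 with NC. Both knockdowns lay above NC, and it rose with sip53 (log2 0.74, SE 0.12, adjusted p = 0.000713) and with siGYS1 (log2 0.46, SE 0.12, adjusted p = 0.0264). With siGYS1 the change became 0.38 without NC replicate 2 (adjusted p = 0.185) and 0.29 without siGYS1 replicate 1 (adjusted p = 0.101), and neither passed. It also missed the threshold when sip53 replicate 1 was left out (adjusted p = 0.0671), or sip53 replicate 2 (adjusted p = 0.0656). PARP9 was at 7.39 and 6.83 FPKM with siGYS1, 10.8 and 10.4 with sip53, and 8.72 and 7.47 with NC. It rose with sip53 (log2 0.53, SE 0.10, adjusted p = 0.00191), and siGYS1 lay below both NC libraries without passing (log2 -0.07, adjusted p = 0.678). The 2 genes share 217 exon bases on opposite strands.

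SP100, a component of PML nuclear bodies, was at 22.4 and 24.2 FPKM with siGYS1, 32.8 and 31.4 with sip53, and 22.1 and 21.8 with NC. It rose with sip53 (log2 0.52, SE 0.09, adjusted p = 0.000812), the siGYS1 libraries being only slightly above NC. TRIM21, a cytosolic antibody receptor and ubiquitin ligase, was at 11.5 and 12.3 FPKM with siGYS1, 17.2 and 15.1 with sip53, and 12.4 and 13.5 with NC. Its rise with sip53 (log2 0.41, SE 0.11, adjusted p = 0.0106) was lost without NC replicate 1 (0.34, adjusted p = 0.0769) and without sip53 replicate 1 (0.31, adjusted p = 0.115).

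BST2, or tetherin, which holds budding virions at the cell surface, was the effector that fell furthest with sip53. It was at 31.6 and 34.2 FPKM with siGYS1, 26.8 and 28.1 with sip53, and 41.0 and 45.3 with NC. Both knockdowns lay below NC, and the fall passed with sip53 (log2 -0.54, SE 0.10, adjusted p = 0.00167) and missed with siGYS1 (log2 -0.32, SE 0.10, adjusted p = 0.0527), where it passed without siGYS1 replicate 2 (-0.36, adjusted p = 0.0305). IFI35, which binds the factor NMI, was at 7.13 and 7.35 FPKM with siGYS1, 9.51 and 11.1 with sip53, and 8.85 and 9.76 with NC. Neither comparison against NC passed (log2 -0.28, adjusted p = 0.2, and 0.26, adjusted p = 0.161), and sip53 and NC overlapped.

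MX2 and IFI44L were too low for the test. MX2, which blocks nuclear entry of retroviruses, had 2 reads over both siGYS1 libraries, 7 with sip53 and 3 with NC, and the ratio of sip53 to NC was 2.49 (95% interval 0.569 to 14.9). IFI44L had 3 reads with siGYS1, 9 with sip53 and 0 with NC. With NC set to 3 reads over the group, the ratio of sip53 to NC was 3.2. This takes the 9 sip53 reads as exact, so it is not a lower limit. A difference between siGYS1 and NC was not detectable at this depth for either gene.

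Set against each other directly, siGYS1 was below sip53 in 23 of the 36 tested genes and above it in 2. That is 69.4%, beside 43.4% of all genes (22.5% higher and 20.9% lower with siGYS1). The 23 include RSAD2 and IFI44, which reached the filter's minimum count with sip53 alone. Being tested through the group where they are highest favoured a lower call with siGYS1 for these genes. The share was not recounted without them. Fits without sip53 replicate 1 and without sip53 replicate 2 gave 3416 and 3485 changed genes in all in place of 5745. MX1 differed by -1.83 on the log2 scale (adjusted p = 4.89e-06), IFI27 by -1.53 (adjusted p = 3.2e-05), OASL by -1.35 (adjusted p = 0.00175), ISG15 by -1.29 (adjusted p = 2.51e-05) and IFI6 by -1.01 (adjusted p = 0.00011), siGYS1 minus sip53. Of the genes that rose with both siRNAs, MX1, IFI27, OASL and IFI6 were thus lower with siGYS1 than with sip53 in every alternative, whereas the difference of DTX3L did not pass (-0.28, adjusted p = 0.0789; without siGYS1 replicate 1 it was -0.45, adjusted p = 0.00382). IRF9 differed by -1.72 (SE 0.14, adjusted p = 1.39e-05). The genes higher with siGYS1 were OAS3 (0.68, adjusted p = 0.000936) and HERC5 (0.65, adjusted p = 0.00063). On the FPKM scale the OAS3 difference was 0.26 to 0.28 and did not pass in limma (adjusted p = 0.0812 to 0.106). The 23 lower calls included 16 that held without each library, among them RSAD2, which was tested through sip53 alone. The calls of TRIM21, IFI35, IRF7, IFIH1, IFIT1, IFI44 and SAMD9 did not hold. Without sip53 replicate 1, TRIM21 was at -0.37 (adjusted p = 0.0802), IRF7 at -0.74 (adjusted p = 0.126), IFIH1 at -0.43 (adjusted p = 0.172), IFIT1 at -0.49 (adjusted p = 0.0668), IFI44 at -1.50 (adjusted p = 0.0821) and SAMD9 at -0.90 (adjusted p = 0.0551). IFI35 was lost without sip53 replicate 2 (-0.42, adjusted p = 0.122), as was IRF7 (-0.81, adjusted p = 0.0966). IRF7 was also lost without siGYS1 replicate 1 (-0.60, adjusted p = 0.0976), and IFIH1 without siGYS1 replicate 2 (-0.44, adjusted p = 0.0858).

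The other genes of the pathway were counted from lists, to be read beside the 19.7% of all tested genes that changed with siGYS1 and the 49.9% with sip53. Of 10 interferon receptors and their kinases, 3 rose and 1 fell with siGYS1 (40% changed), and 6 rose with sip53 (60%). JAK1, a receptor-bound kinase, was at 9.72 and 9.99 FPKM with siGYS1, 9.65 and 9.27 with sip53, and 6.57 and 7 with NC, above NC in every knockdown library. On the log2 scale it rose by 0.71 with siGYS1 (adjusted p = 0.0011) and 0.58 with sip53 (adjusted p = 0.000703). IFNAR2, a chain of the receptor for interferons alpha and beta, rose by 0.60 with siGYS1 (adjusted p = 0.00194) and 1.04 with sip53 (adjusted p = 1.26e-05). With sip53, the interferon lambda receptor IFNLR1 (log2 1.46, adjusted p = 0.00848) and the interferon gamma receptor IFNGR1 (0.93, adjusted p = 3.36e-05) rose too. The change of IFNLR1 was 1.11 without NC replicate 2 (adjusted p = 0.0768) and 1.44 without sip53 replicate 2 (adjusted p = 0.0515), and did not pass.

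Among 15 tested adapters and kinases downstream of the sensors, 3 rose and 3 fell with siGYS1 (40% changed), and 9 rose and 3 fell with sip53 (80%). With siGYS1, leaving out NC replicate 1, NC replicate 2, sip53 replicate 1 or sip53 replicate 2 gave 2 changed genes in place of 6, and leaving out siGYS1 replicate 1 gave 3. The 3 largest changes with siGYS1 were in the RNA-binding cofactor ZCCHC3 (log2 0.59, adjusted p = 0.00384), the Toll-like receptor adapter MYD88 (-0.49, adjusted p = 0.00464) and TRIM25, a ubiquitin ligase in RIG-I signalling (0.40, adjusted p = 0.0218). TRIM25 passed on leaving out siGYS1 replicate 2 but no other library, with adjusted p of 0.0554 without NC replicate 1, 0.168 without NC replicate 2, 0.0655 without siGYS1 replicate 1, 0.0598 without sip53 replicate 1 and 0.059 without sip53 replicate 2. With sip53 they were the DNA sensor IFI16 (2.00, adjusted p = 1.19e-05), TICAM1, which encodes TRIF (0.94, adjusted p = 0.000257), and the kinase gene IKBKE (0.80, adjusted p = 0.000328). IFI16 was at 1.23 and 1.15 FPKM with siGYS1, 4.51 and 4.75 with sip53, and 1.08 and 1.66 with NC.

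Of 14 negative regulators, 1 rose and 1 fell with siGYS1 (14.3% changed), and 5 rose and 4 fell with sip53 (64.3%). TNFAIP3, which dampens NF-kB and interferon signalling, rose in both (log2 0.69, adjusted p = 0.0022 with siGYS1, and 1.79, adjusted p = 1.39e-06 with sip53). NLRX1, a mitochondrial regulator, fell with siGYS1 (-0.29, adjusted p = 0.0468), with adjusted p of 0.171, 0.18, 0.136, 0.101 and 0.1 without NC replicate 1, NC replicate 2, siGYS1 replicate 1, sip53 replicate 1 and sip53 replicate 2; without siGYS1 replicate 2 the list had 4 changes. With sip53 the autophagy gene ATG5 fell (-1.25, adjusted p = 1.15e-05) and SOCS3, a brake on JAK kinases, rose (1.19, adjusted p = 3.12e-05). Of 13 genes of antiviral RNA decay and editing, 1 rose and 2 fell with siGYS1 (23.1% changed), and 1 rose and 5 fell with sip53 (46.2%), shares close to those of all genes. Cytidine deaminases led the falls with siGYS1, APOBEC3C (-0.73, adjusted p = 0.0011) and APOBEC3F (-0.69, adjusted p = 0.0123), and the helicase MOV10 rose (0.42, adjusted p = 0.00822). Without NC replicate 2, APOBEC3F (-0.52, adjusted p = 0.12) and MOV10 (0.40, adjusted p = 0.0805) did not pass, leaving 1 call. With sip53 the falls were led by SLFN11, which restricts translation of viral RNA (-2.45, adjusted p = 0.00106), APOBEC3G (-1.01, adjusted p = 0.000749) and APOBEC3F (-0.91, adjusted p = 0.000899). SLFN11 had 3 and 9 reads with sip53. For APOBEC3F the scale mattered: limma on log2(FPKM + 1) and log2(FPKM + 0.1) gave -0.29 and -0.33 with siGYS1 (adjusted p = 0.209 and 0.212), and -0.27 and -0.31 with sip53 (adjusted p = 0.162 and 0.163), none of which passed.

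Of 28 tested interferon-stimulated genes outside the main list, 2 rose with siGYS1 (7.14% changed), and 14 rose and 4 fell with sip53 (64.3%). The 2 were the chemokine CCL5 (log2 2.11, adjusted p = 0.00567) and ZNFX1, a helicase that senses RNA at mitochondria (0.64, adjusted p = 0.00277). Without siGYS1 replicate 2 there were 6. CCL5 was at 2.14 and 1.86 FPKM with siGYS1, 2.88 and 1.94 with sip53, and 0.48 and 0.42 with NC, and it rose with sip53 as well (2.36, adjusted p = 0.00065). It was tested through the knockdowns, as NC had 8.53 and 7.43 reads. Without both NC replicate 2 and siGYS1 replicate 1 its siGYS1 change was 1.57 (adjusted p = 0.0663). GBP2, a guanylate-binding protein (2.28, adjusted p = 0.00125), and XAF1, a pro-apoptotic factor (2.02, adjusted p = 0.00013), followed with sip53. GBP2 had 5.25 and 3 reads with siGYS1, 23 and 28 with sip53, and 5 and 6 with NC, so it was tested through sip53 alone. Among those below the filter, chosen after their values were seen, the chemokine CXCL10 had 3 reads with siGYS1, 20 with sip53 and 1 with NC, a sip53 to NC ratio of 21.4 (95% interval 3.42 to 885).

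Of the 7 interferon ligand genes in the table, IFNA1 and IFNE were tested and the other 5 had too few reads. IFNA1 was at 0.57 and 0.46 FPKM with siGYS1, 0.75 and 0.35 with sip53, and 1.71 and 1.73 with NC, below NC in every knockdown library (log2 -1.61, adjusted p = 0.0341 with siGYS1, and -1.47, adjusted p = 0.0201 with sip53). It was tested through NC alone, with 18.05 and 18.32 reads there, 5.92 and 5 with siGYS1, and 7.89 and 3.77 with sip53. Close relatives of IFNA1 could share its reads. The siGYS1 call was lost on leaving out any library, with adjusted p of 0.11 without NC replicate 1, 0.152 without NC replicate 2, 0.0896 without siGYS1 replicate 1, 0.0985 without siGYS1 replicate 2, 0.0576 without sip53 replicate 1 and 0.0551 without sip53 replicate 2. With sip53 the adjusted p was 0.0771 without NC replicate 1, 0.0753 without NC replicate 2 and 0.154 (log2 -1.06) without sip53 replicate 2. IFNE, an epithelial interferon of the reproductive tract, was at 5.95 and 5.11 FPKM with siGYS1, 3.48 and 2.31 with sip53, and 7.63 and 6.59 with NC. Both knockdowns lay below NC, and the fall passed with sip53 (-1.19, adjusted p = 0.000951) and not with siGYS1 (-0.29, adjusted p = 0.29). IFNB1 had 0 reads with siGYS1, 4 with sip53 and 0 with NC, and IFNL1 had 1, 6 and 0 reads.

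**Figure D4:**
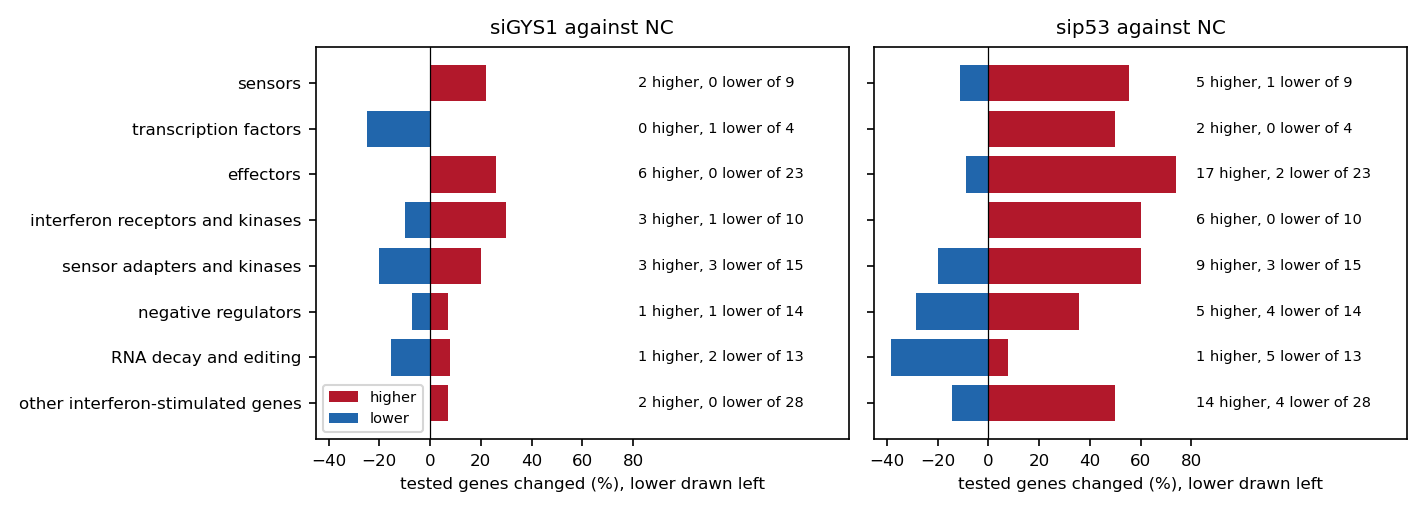
Percent of tested genes that rose (right) or fell (left) against NC with siGYS1 and with sip53, for each list of pathway genes, with the counts beside each bar. In number of genes the effectors have the most rises, 17 of 23 with sip53 and 6 of 23 with siGYS1. Over all tested genes, 23.4% rose with sip53 and 10.4% with siGYS1.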

How the data were processed

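In all, 6 libraries in 3 groups of 2 were used. Per the file headers, the authors' table gives 4 values per gene and library, namely read counts, normalized read counts, FPKM and TPM. The deposited read counts are expected counts, since 16.8% to 18.1% of values per library are not whole (tolerance 1e-09), and were rounded. The authors' normalized signal equals the read count, rounded up, times a constant per library; it and the deposited TPM were not tested. The submitters' processing notes name several aligners and counters without role, and a mouse build, mm10, beside human gene identifiers. The tool behind the table is not stated in the sources used here.

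The fit used edgeR 4.0.16 under R 4.3.3 (filterByExpr with a minimum count of 10, TMM, estimateDisp, glmQLFit, glmQLFTest), with group as its term, all 6 libraries together and 3 residual degrees of freedom. Of 16910 genes, 13235 were tested and p-values were adjusted over all of them. The SE is the absolute log2 fold change over the square root of F. Printed levels are the authors' FPKM and differences are log2 fold changes of counts. Read totals of 17425000 to 18097337 limit genes of few reads; intervals (95%, exact) and the floor of 3 reads cover counting error only. The procedure was tested on simulated counts with changes planted in siGYS1. The simulation held no length-related deviation of a library, so it does not cover those seen in these data. Alternatives used DESeq2 1.42.0, limma 3.58.1 on log2(FPKM + 1) or log2(FPKM + 0.1), length offsets, a replicate block and each library left out.

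The members and lists were chosen with earlier results of these data known. Members that changed against NC are given in every library, with OASL, IRF9, IFIH1, STAT2, ISG15, EIF2AK2 and IRF1; other lists give up to 3 changed genes with the largest change per comparison. The transcript targeted by sip53 and some genes taken by this rule are not reported here. Promoters are from RefSeq (GRCh38.p14); those of DHX58, OAS2, OASL, IRF7, MX2, IFIT2, IFITM2 and USP18 were not used.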

Additional observations from a re-analysis of the deposited data

How the results depend on the processing

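GYS1 stayed between -3.43 and -4.05 on the log2 scale in all 16 alternatives. With siGYS1 against NC, 9 members changed; the count was 14 with a replicate block, 14 with length-corrected offsets, 4 with limma on log2(FPKM + 1) without a filter, and 6 to 12 on leaving out each library. Over all genes, 2602 changed; the count was 1577 with only both compared groups fitted, 4662 with the block, 941 with limma without a filter, 4079 with length-corrected offsets and 926 to 4260 on leaving out each library. With sip53 against NC, 22 to 31 members (27 in the main fit) and 4271 to 7621 genes changed without each library, and for siGYS1 against sip53 19 to 27 members (25) and 3416 to 6337 genes. Without both NC replicate 2 and siGYS1 replicate 1, chosen after seeing the data, 9, 27 and 26 members changed in the 3 comparisons. OASL, OAS3, MX1 and IFI6 kept their rise with siGYS1 in every alternative that could be fitted, and 19 of 24 rises with sip53 did so. The sip53 change of OAS3 reversed to 0.31 (adjusted p = 0.0423) and 0.34 (adjusted p = 0.0394) with limma on log2(FPKM + 1) and log2(FPKM + 0.1), where the implied transcript length differs. Limma on log2(FPKM + 1) gave 667 rises and 1174 falls with siGYS1, against 1379 and 1223 in the main fit, and 1903 and 3487 with sip53, against 3103 and 3502; its median over all genes was -0.10 with sip53.

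Replicate numbers are shared by the groups, but nothing says that they pair libraries. Same-numbered deviations correlated at 0.283 (siGYS1 and NC), -0.0159 (sip53 and NC) and 0.128 (siGYS1 and sip53), so the block is given as an alternative only: with it, 14, 32 and 28 members and 4662, 7890 and 7202 genes changed in the 3 comparisons. With limma without a filter, IFI27 (adjusted p = 0.0671) and IRF9 (adjusted p = 0.106) did not pass with siGYS1. Depth limits MX2, IFI44L, IFI44 and RSAD2, which have few reads in NC.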
